A study of Mus musculus with 6 samples.

Results

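The Kupffer cell and macrophage genes examined here are 34 genes, 8 that mark Kupffer cells or other tissue-resident macrophages and 26 that macrophages share with other myeloid cells or with leukocytes at large. They were chosen by name, and every probe set annotated with exactly 1 gene symbol, that of a member, was taken. This gave 57 probe sets out of 45101 on the array. The data are microarray signals of total RNA from whole livers of male mice aged 3 weeks, 3 mutants and 3 controls, each on 1 array. Mutants were Srf loxP/loxP AlfpCre, with both copies of Srf open to deletion, and controls were Srf loxP/+ AlfpCre, with 1 copy open to deletion, so the Cre transgene was common to all mice. AlfpCre combines regulatory elements of the albumin and alpha-fetoprotein genes and is known to act in the hepatocyte lineage, which does not give rise to macrophages. The comparison therefore asks how transcripts of a cell type outside that lineage stood in livers whose hepatocytes were targeted.

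Kupffer cells are the macrophages that live in the liver sinusoids, where they take up microbes, dying cells and aged red cells and return the iron. Most descend from precursors that seed the liver before birth, and they depend on signalling through the CSF1 receptor. Monocytes from the blood can replace them after loss, gaining the defining markers Clec4f and Timd4 only gradually.

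The targeted gene did not separate the groups. Srf (1418256_at) had log2 signals of 4.17, 5.24 and 2.54 in mutants 1 to 3, against 5.31, 5.14 and 5.11 in controls 1 to 3 (log2 difference -1.20, SE 0.62, adjusted p = 0.398, limma). Mutant 2 lay within the control range. The second probe set of Srf (1418255_s_at) had 3.29, 0 and 1.99 in mutants, all under background, and 3.0, 3.69 and 3.37 in controls, so that here mutant 2 was the lowest array and mutant 1 overlapped the controls (log2 difference -1.59, adjusted p = 0.411, limma). Since the sources do not place either probe set inside or outside the deleted part, this is no check of the labels. The ratio of 3′ to 5′ control probe sets, which grows as RNA is degraded, was 2.36 to 5.33 in mutants and 1.68 to 2.36 in controls for Actb, and 6.39 to 17.3 in mutants and 4.44 to 7.03 in controls for Pcx (exact two-sided permutation p = 0.2 for each). For Gapdh it was 0.773 to 1.01 in mutants and 0.679 to 0.756 in controls, without overlap (exact two-sided permutation p = 0.1, which is the lowest value this design can give). Mutant 1 had the highest ratio in each case and mutant 2 the lowest among the mutants. The trimmed mean signal as deposited was 37.3 to 58.1 in mutants and 55.2 to 69.9 in controls, and arrays were rescaled to a common value before any comparison. Background was taken as the 95th percentile of the log2 signals of 83 olfactory, vomeronasal and taste receptor probe sets, and was 2.94 to 3.52 on the mutant arrays and 2.97 to 3.26 on the control arrays. As a check of the tissue, the hepatocyte marker Alb was at log2 signals of 12.87 to 13.30 in mutants and 12.53 to 12.82 in controls. All 33 members kept after leaving out dim probe sets but 1, Itgax, exceeded background on at least 1 array, and 23 did so on all 6 arrays, among them Clec4f, Cd5l, Vsig4, Marco and Cd163.

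Of 33 macrophage genes kept, 19 had an absolute log2 difference under 0.5, and those whose mutant values all lay below the controls were lowest in mutant 1, except C1qb, which was lowest in mutant 3. None of the 33 members and none of their 49 probe sets passed the test, in either direction; the smallest adjusted p was 0.287 (limma, Benjamini-Hochberg over 27022 probe sets). Of all probe sets 0.074% passed, and of all 13144 genes 0.114%, with 11 lower (0.0837%) and 4 higher (0.0304%) in mutants. The split was 18 lower and 3 higher on the scaling as deposited. The smallest absolute difference among the genes that passed was 2.48 on the log2 scale. At an unadjusted p under 0.05, 4 members were lower and none higher, against 7.01% of all genes lower and 7.36% higher. The groups did not overlap for 8 members, all lower in mutants, which is 24.2% of the members, whereas this held for 10.8% of all genes in that direction and 14.1% in the other. Counted by probe set, 8 of 49 were lower without overlap and 1 higher, against 9.36% and 13.8% of all probe sets. A negative difference was found for 19 members, 57.6%, and for 45.9% of all genes. The median log2 difference, mutant minus control, was -0.93 over the 8 Kupffer-specific genes and -0.12 over the 25 general myeloid genes kept, beside 0.06 over all genes. Since whole liver was measured, fewer macrophages and less of a transcript per macrophage cannot be told apart.

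**Figure D1:**
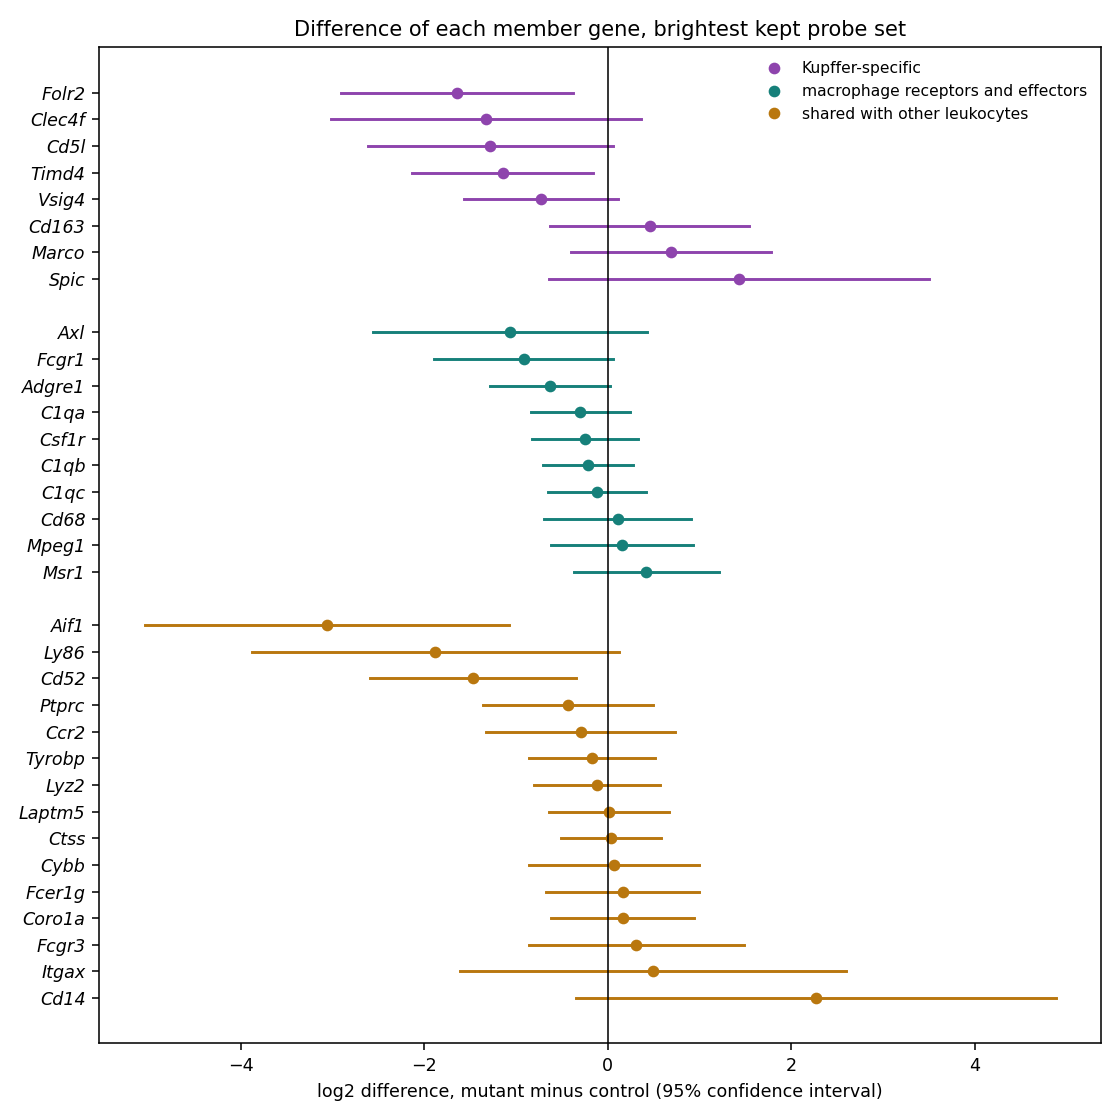
Log2 difference of each member, mutant minus control (x axis, with 95% confidence interval from limma), by gene (y axis) in the 3 classes of role, n = 3 mutants and 3 controls. The intervals of Folr2, Timd4, Aif1 and Cd52 lie below 0 without adjustment for the number of tests, while those of Csf1r, C1qa, C1qb, C1qc and Ctss are narrow and include 0.

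Promoters are shown for 2 of the members with lower values, Timd4 and Aif1, and for 2 C1q chains with small differences, C1qb and C1qc, so that the upstream sequence of genes that parted can be read side by side. The windows run from 250 bases before to 50 after the annotated start, in RefSeq's GRCm38.p6 sequence, 5′ to 3′ on the strand of the gene. Capitals mark GAGGAA, the core that PU.1 binds, or its reverse complement TTCCTC.
Timd4, chr11:46810549-46810848, plus strand: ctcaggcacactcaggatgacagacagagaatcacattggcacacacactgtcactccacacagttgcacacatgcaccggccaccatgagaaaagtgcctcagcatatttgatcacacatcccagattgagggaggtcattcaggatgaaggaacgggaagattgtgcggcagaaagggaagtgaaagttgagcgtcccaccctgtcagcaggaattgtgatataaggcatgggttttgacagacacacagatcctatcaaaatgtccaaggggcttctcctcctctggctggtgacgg
Aif1, chr17:35176003-35176302, minus strand: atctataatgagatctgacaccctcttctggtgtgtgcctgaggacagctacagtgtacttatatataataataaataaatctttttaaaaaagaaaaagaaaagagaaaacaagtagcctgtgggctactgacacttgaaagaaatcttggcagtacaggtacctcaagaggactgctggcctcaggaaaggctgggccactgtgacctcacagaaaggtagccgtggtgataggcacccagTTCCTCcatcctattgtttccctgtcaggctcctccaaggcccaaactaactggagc
C1qb, chr4:136886151-136886450, minus strand: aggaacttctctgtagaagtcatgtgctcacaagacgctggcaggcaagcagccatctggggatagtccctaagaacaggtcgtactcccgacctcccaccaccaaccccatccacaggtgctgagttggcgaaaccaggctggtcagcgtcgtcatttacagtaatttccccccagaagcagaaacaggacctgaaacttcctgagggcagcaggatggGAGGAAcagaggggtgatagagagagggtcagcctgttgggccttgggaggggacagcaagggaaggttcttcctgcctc
C1qc, chr4:136892865-136893164, minus strand: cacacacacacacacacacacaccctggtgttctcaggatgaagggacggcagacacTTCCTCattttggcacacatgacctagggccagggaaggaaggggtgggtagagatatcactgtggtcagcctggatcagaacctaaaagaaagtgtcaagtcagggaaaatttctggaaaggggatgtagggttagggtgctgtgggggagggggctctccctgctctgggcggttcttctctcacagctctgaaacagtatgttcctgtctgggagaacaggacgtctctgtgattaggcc
Timd4 had no match in this window, and Aif1, C1qb and C1qc had 1 each, starting 7, 30 and 193 bases before the start. Promoter windows were found for 27 of the 34 members by symbol, 31 windows in all. GAGGAA or TTCCTC was present in 16 of these windows, 51.6%, for 15 genes, and in 28.3% of all 32851 windows. Among the genes whose groups did not overlap, Fcgr1, C1qb and Aif1 had a match and Timd4, Folr2 and Ly86 had none, while Cd52 and Adgre1 were not matched to a window. The CArG box, the element that SRF binds, was found in 1 member window, that of Mpeg1, and in 1.63% of all windows. These matches describe the letters only.

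Among the Kupffer-specific genes, 5 had a negative difference and 3 a positive one. Clec4f (1449905_at), a C-type lectin that in mouse liver marks Kupffer cells, had log2 signals of 4.95, 7.96 and 7.72 in mutants 1 to 3, against 8.57, 7.76 and 8.28 in controls 1 to 3. Mutant 1 stood far apart, mutant 3 lay just under the lowest control, and the groups overlapped through mutant 2 (log2 difference -1.33, SE 0.73, adjusted p = 0.417, limma). Without mutant 1 the difference was -0.37.

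Cd5l (1449193_at), a secreted scavenger receptor that protects macrophages from cell death, had 5.84, 8.42 and 7.07 in mutants and 8.74, 8.33 and 8.08 in controls. Mutants 1 and 3 were below every control and mutant 2 lay among them (log2 difference -1.28, SE 0.58, adjusted p = 0.373, limma; -0.64 without mutant 1). Vsig4 (1451651_at), the complement receptor CRIg that binds C3b on circulating bacteria, also had mutants 1 and 3 below every control and mutant 2 among them. Its log2 signals were 6.56, 7.89 and 7.09 in mutants and 8.26, 7.69 and 7.76 in controls (log2 difference -0.72, SE 0.37, adjusted p = 0.392, limma).

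Timd4 and Folr2 were the Kupffer-specific genes whose groups did not overlap. Timd4 (1455318_at), a phosphatidylserine receptor for dying cells that marks resident macrophages of embryonic origin, had 2.67, 4.04 and 3.42 in mutants and 4.78, 4.45 and 4.33 in controls. Every mutant was below every control, and mutants 1 and 3 were also below the background of their arrays (log2 difference -1.14, SE 0.43, 95% confidence interval -2.13 to -0.16, adjusted p = 0.336, limma). Folr2 (1451648_a_at), the folate receptor beta of resident macrophages, had 2.86, 4.96 and 4.15 in mutants and 5.83, 6.02 and 5.05 in controls. Its difference was -1.64 (SE 0.55, 95% confidence interval -2.90 to -0.38, adjusted p = 0.318, limma), and mutant 1 was below background. Leaving out mutant 1 gave -0.79 for Timd4 and -1.08 for Folr2. Dim signals set part of these sizes: Timd4 had -0.51 with a floor of 16 and -0.36 after log2(signal + 32), and Folr2 had -1.26 and -0.73.

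Marco, Cd163 and Spic had positive differences that did not pass the test. Marco (1449498_at), a scavenger receptor for bacteria and particles, had 7.56, 6.14 and 5.62 in mutants and 5.86, 5.81 and 5.58 in controls. Its excess was mostly that of mutant 1 (log2 difference 0.69, SE 0.47, adjusted p = 0.491, limma; 0.13 without mutant 1). Spic (1418555_x_at, which can detect related transcripts), the transcription factor that haem induces in iron-recycling macrophages, had 6.71, 2.77 and 4.35 in mutants and 3.83, 2.84 and 2.85 in controls. Mutant 2 was below every control and the other mutants above them (log2 difference 1.44, SE 0.90, adjusted p = 0.457, limma; 0.66 after log2(signal + 32)). A dimmer probe set of Spic was left out by the filter and had 5.83, 2.41 and 0 in mutants and 2.07, 2.06 and 0 in controls. Cd163 (1419144_at), the haemoglobin-haptoglobin receptor, had 5.58, 5.78 and 6.10 in mutants and 5.31, 4.43 and 6.34 in controls, where the controls alone spanned more than the mutants (log2 difference 0.46, SE 0.47, adjusted p = 0.637, limma).

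**Figure D2:**
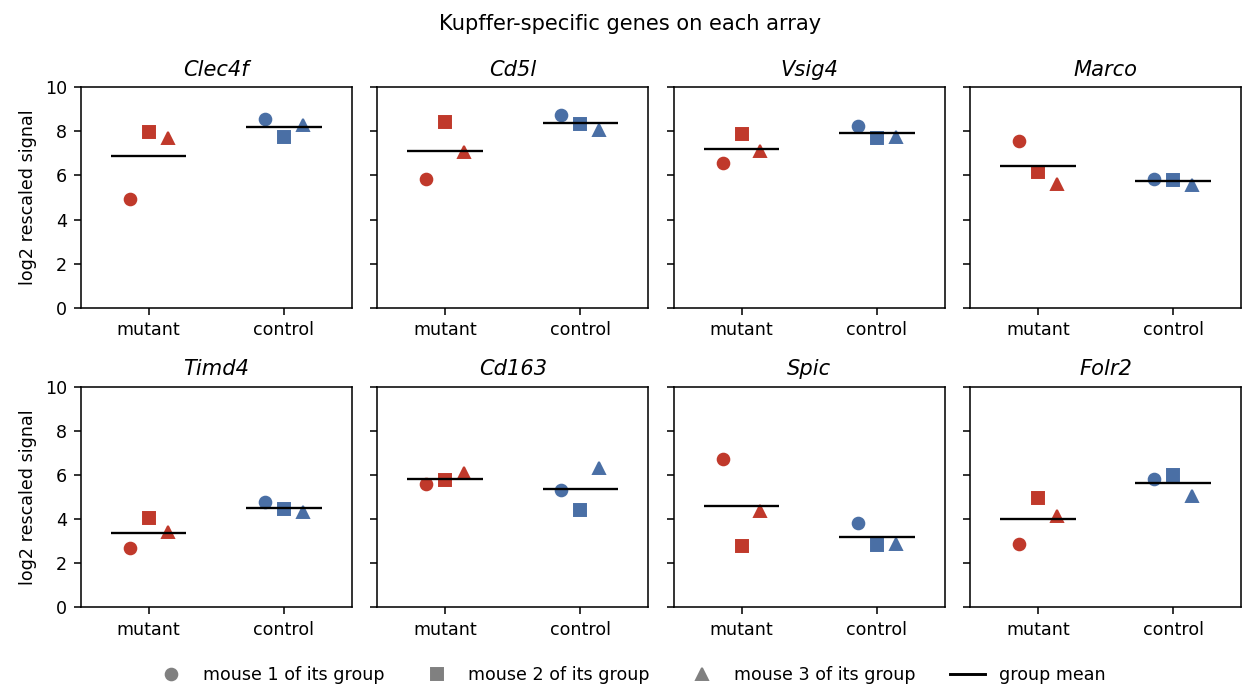
Log2 rescaled signal (y axis) of the 8 Kupffer-specific genes on each array, mutants left and controls right; symbols give the mouse number within its group and lines the group means. Mutant 1 is lowest for Clec4f, Cd5l, Vsig4, Timd4 and Folr2 and highest for Marco and Spic.

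Genes for receptors and effectors common to macrophages mostly had small differences. Of 10 such genes, 7 had an absolute difference under 0.5 on the log2 scale. Csf1r (1419872_at), the receptor for the growth factors CSF1 and IL-34 on which Kupffer cells depend, had 8.52, 8.89 and 8.40 in mutants and 9.19, 8.64 and 8.72 in controls. The groups overlapped, with a difference of -0.25 (SE 0.25, 95% confidence interval -0.82 to 0.33, adjusted p = 0.634, limma), and its other 2 probe sets gave -0.23 and -0.32. The interval leaves room for a reduction of up to 0.82 on the log2 scale. Csf1r was singled out after its values were seen.

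The 3 chains of complement C1q, the molecule that starts the classical pathway and in liver comes largely from macrophages, differed little. C1qa (1417381_at) had 7.39, 7.57 and 7.20 in mutants and 7.90, 7.67 and 7.49 in controls, a difference of -0.30 (95% confidence interval -0.83 to 0.24). C1qb (1417063_at) had 7.23, 7.40 and 7.22 in mutants and 7.59, 7.41 and 7.50 in controls. For C1qb the groups did not overlap, but mutant 2 and control 2 differed by less than 0.01 and the difference was -0.22 (SE 0.21, adjusted p = 0.624, limma). The other 2 probe sets of C1qb overlapped between groups and gave 0.09 and 0.14. C1qc (1449401_at) had a difference of -0.11 (95% confidence interval -0.65 to 0.42).

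Adgre1 and Fcgr1 were lower in every mutant than in every control. Adgre1 (1451161_a_at) encodes the surface protein by which mouse macrophages are usually recognised. It had 5.26, 5.87 and 5.44 in mutants and 6.43, 6.12 and 5.90 in controls (log2 difference -0.63, SE 0.28, adjusted p = 0.373, limma). Control 3 and mutant 2 lay within 0.04 of each other, and the difference was -0.40 after log2(signal + 32). Fcgr1 (1417876_at), the high-affinity receptor for IgG, had 2.92, 4.09 and 3.27 in mutants and 4.76, 4.15 and 4.12 in controls (log2 difference -0.92, SE 0.42, adjusted p = 0.375, limma), with mutants 1 and 3 below background; it was -0.31 with a floor of 16 and -0.28 after log2(signal + 32). A second probe set of Fcgr1 (1436625_at) gave 0, 2.21 and 3.38 in mutants and 3.65, 2.69 and 3.72 in controls, an overlap.

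The remaining genes of this class overlapped between groups on their brightest probe set. Axl, a receptor that recognises dying cells through GAS6, had 2.67, 5.42 and 4.34 in mutants and 5.62, 5.22 and 4.80 in controls (log2 difference -1.07, SE 0.65, adjusted p = 0.448, limma; -0.63 with a floor of 16 and -0.39 after log2(signal + 32)). Mutant 2 was within the range of the controls for Axl, as it was for Cd5l and Vsig4. Cd68, a lysosomal glycoprotein of phagocytes, and Mpeg1, a pore-forming protein against engulfed bacteria, had differences of 0.11 and 0.16. Msr1, the class A scavenger receptor, had 0.42 on its brightest probe set and -0.02, 0.37 and 0.84 on the other 3, so its probe sets were not of one sign. The last of these (1425435_at) had 3.95, 4.65 and 3.97 in mutants and 3.52, 2.84 and 3.68 in controls, every mutant above every control (adjusted p = 0.382, limma).

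Genes shared with other leukocytes had differences from -3.06 for Aif1 to 2.27 for Cd14, 7 negative and 8 positive. Of 15 kept, 11 had an absolute difference under 0.5. Aif1 (1418204_s_at, which can detect related transcripts) encodes IBA1, a calcium-binding protein that bundles actin in macrophages. Its log2 signals were 0, 3.47 and 1.03 in mutants, against 5.04, 4.53 and 4.12 in controls. No mutant reached any control, and mutants 1 and 3 were under the background, mutant 1 at the floor. The difference was -3.06 (SE 0.86, 95% confidence interval -5.05 to -1.08, adjusted p = 0.287, limma), the smallest adjusted p of the members. Its size rests on signals under background: it was -0.56 with a floor of 16 (adjusted p = 0.383) and -0.63 after log2(signal + 32) (adjusted p = 0.164). Without mutant 1 it was -2.31 (adjusted p = 0.226), and without mutant 2 it was -4.05 (adjusted p = 0.0295), the one setting of 18 in which a member passed.

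Cd52 and Ly86 were also lower in every mutant than in every control. Cd52 (1460218_at), a small surface glycoprotein of leukocytes, had 2.85, 4.43 and 4.51 in mutants and 5.52, 5.0 and 5.67 in controls. The groups did not overlap (log2 difference -1.47, SE 0.49, 95% confidence interval -2.59 to -0.34, adjusted p = 0.317, limma), and without mutant 1, which was below background, the difference was -0.93. Ly86 (1422903_at), also called MD-1, the partner of the Toll-like protein RP105, had 1.21, 5.05 and 4.08 in mutants and 5.60, 5.29 and 5.07 in controls. Mutant 2 fell short of the lowest control by under 0.03, and mutant 1 was below background (log2 difference -1.88, SE 0.87, adjusted p = 0.375, limma; -0.76 without mutant 1). With a floor of 16 the difference was -1.08 for Cd52 and -0.95 for Ly86, and after log2(signal + 32) it was -0.61 and -0.59.

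Cd14, the co-receptor for bacterial lipopolysaccharide, had the highest difference of the members and was singled out for that. It had 9.92, 4.92 and 5.70 in mutants and 4.59, 4.20 and 4.96 in controls, so that mutant 1 stood over 4 above the next array while mutant 2 lay among the controls (log2 difference 2.27, SE 1.13, adjusted p = 0.391, limma; 0.73 without mutant 1). Hepatocytes can also express Cd14, and its source was not measured. Fcgr3 (1448620_at), a low-affinity IgG receptor, was high in mutant 1 as well, with 6.67, 4.96 and 4.69 in mutants and 5.38, 5.0 and 5.01 in controls (log2 difference 0.31).

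The genes of this class close to 0 included signalling and lysosomal genes that macrophages use widely. Ctss (1448591_at), the protease cathepsin S, had 8.08, 7.90 and 7.67 in mutants and 8.09, 7.79 and 7.65 in controls. The ranges coincided almost fully (log2 difference 0.04, SE 0.24, 95% confidence interval -0.50 to 0.58). The differences were -0.12 for lysozyme 2 (Lyz2), 0.02 for the lysosomal membrane protein Laptm5 and 0.07 for Cybb, the catalytic subunit of the phagocyte oxidase. For Tyrobp and Fcer1g, the adaptors that pass on signals from activating receptors, they were -0.17 and 0.16. Coro1a, an actin-binding coronin of leukocytes, had 0.17 and Ptprc, the leukocyte phosphatase CD45, had -0.43. For Ptprc the shift came from mutant 3, which had 4.39, while mutants 1 and 2 had 5.75 and 5.74 and the controls 5.63 to 5.83. Over all members, 12 had a 95% confidence interval that lay within 1 of zero on the log2 scale. Ccr2, the chemokine receptor of inflammatory monocytes, was dim. Its brightest probe set (1421186_at) had 2.70 to 3.30 in mutants, all under background, and 2.86 to 3.57 in controls (log2 difference -0.30, SE 0.45). A second (1460067_at) had 0, 3.48 and 4.53 in mutants, of which mutants 2 and 3 were above background, and 4.0, 1.93 and 2.58 in controls (log2 difference -0.17). Its dimmer probe sets 1421188_at and 1421187_at were left out by the filter. The former had 1.57, 0.38 and 0.43 in mutants, all under background, and 3.62, 2.90 and 3.01 in controls, every mutant below every control. The latter was under background on all 6 arrays. The integrins Itgax and Itgam, known as CD11c and CD11b, were under background on all 6 arrays, and Itgam was left out by the filter.

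**Figure D3:**
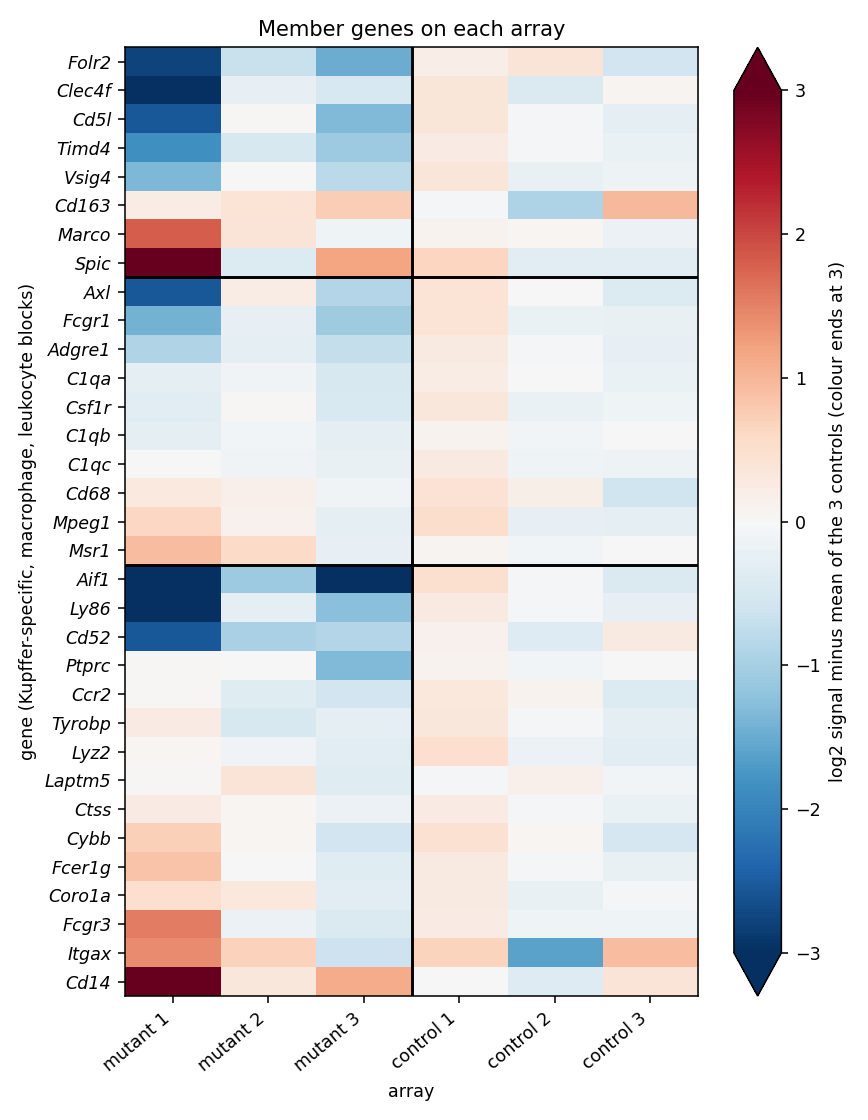
Log2 signal of each member gene (rows, in the 3 classes of role) minus the mean of the 3 controls, on each array (columns, mutants left); blue is lower, red higher, and colours end at 3. The darkest cells in both directions lie in mutant 1, and that of Aif1 in mutant 3 also reaches the end of the colours. Mutant 2 is close to the controls, and the rows from C1qa to C1qc and from Tyrobp to Ctss are pale on all 6 arrays.

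The mutants were unlike each other over these genes. In mutant 1, 10 of 33 members were over 1 below the control mean and 5 over 1 above it (all genes: 20.5% and 18.5%). In mutant 3 the counts were 7 below and 2 above (all genes: 9.44% and 11.6%). In mutant 2 they were 1 below, Aif1, and 0 above (all genes: 6.25% and 6.09%). The median deviation of the Kupffer-specific genes from the control mean was -1.60, -0.13 and -0.65 in mutants 1 to 3, and 0.31, -0.14 and -0.18 in controls 1 to 3. For the general myeloid genes it was 0.03, 0.01 and -0.43 in mutants and 0.28, -0.08 and -0.20 in controls. Mutant 2 thus lay within the control range for both classes. Summed over genes, the rescaled linear signal of the Kupffer-specific genes was 537 to 1009 in mutants and 918 to 1311 in controls, and that of the macrophage receptors and effectors was 1012 to 1340 in mutants and 1200 to 1639 in controls. That of the genes shared with other leukocytes was 637 to 1895 in mutants, mutant 1 being the highest, and 735 to 998 in controls. In mutant 1 this last sum owes most to Cd14, at a log2 signal of 9.92, against 8.08 for the next gene, Ctss. The median deviation of the genes shared with other leukocytes was 0.24, 0.01 and -0.43 in mutants 1 to 3, and -0.19 to 0.27 in controls.

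The order of the mutants in the Kupffer-specific genes was also their order in RNA integrity. The mean log2 ratio of 3′ over 5′ control probe sets, averaged over Pcx, Gapdh and Actb, was 2.18, 1.18 and 1.57 in mutants 1 to 3, and 0.91, 0.78 and 1.22 in controls 1 to 3. With this index as a covariate no member had an unadjusted p under 0.05, the median of the Kupffer-specific genes was -0.05 and that of the general myeloid genes -0.15. Clec4f, Cd5l, Vsig4, Ly86 and Axl then had differences above 0, at 0.36, 0.25, 0.030, 0.41 and 0.63. Timd4, Folr2, Aif1 and Cd52 remained below 0, at -0.32, -0.20, -1.04 and -0.67, with SEs of 0.48, 0.37, 0.82 and 0.59. Cd14, Spic and Marco had -0.84, -0.73 and -0.13. Group and index overlap so far that the fit has few arrays by which to tell them apart.

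**Figure D4:**
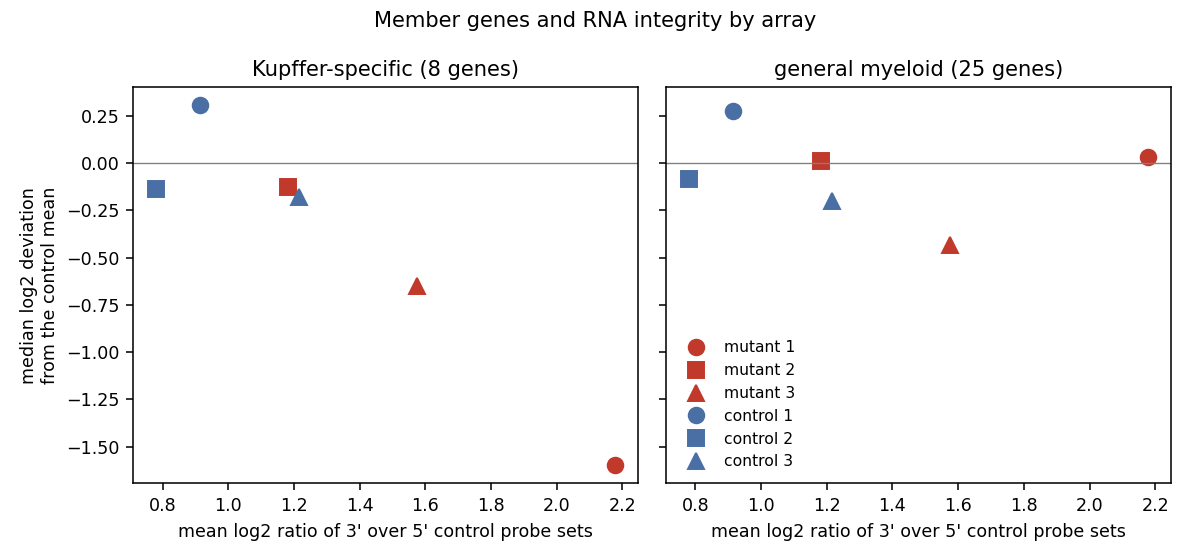
Median log2 deviation of the Kupffer-specific genes (left) and the general myeloid genes (right) from the control mean (y axis) against the mean log2 ratio of 3′ over 5′ control probe sets (x axis), 1 point per array. Mutants 3 and 1, at 1.57 and 2.18, have the lowest Kupffer-specific medians, -0.65 and -1.60, while the general myeloid median of mutant 1 is 0.03.

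Markers of other cell types also differed between the mutant arrays, not all in the direction of the members, and their part in the results was not tested. No gene of any list passed the test over all probe sets. The 10 genes of liver endothelial cells, the neighbours of Kupffer cells in the sinusoid, had a median deviation of -1.16, 0.72 and -0.34 in mutants 1 to 3 (summed signal 496 to 1853 in mutants and 914 to 1453 in controls), and 7 differences were negative and 3 positive. The scavenger receptor Stab2 had -0.40. The 8 stellate cell genes had -1.75, 0.08 and -0.99 (600 to 2164 in mutants and 2238 to 2738 in controls), with 7 negative and 1 positive, led by the collagens Col3a1 at -3.56 and Col1a1 at -2.53. The 5 erythroid genes kept had -1.60, 0.14 and 0.06 (72.0 to 419 in mutants and 281 to 527 in controls). Alas2, the first enzyme of haem synthesis in red cell precursors, had a difference of -2.97 (adjusted p = 0.352, limma), and Epor, the erythropoietin receptor, had 0.93 with every mutant above every control (adjusted p = 0.365, limma). Of the 5 differences, 3 were negative and 2 positive. Hepatocyte genes were mostly the other way, with 5 of 6 positive and deviations of 0.55, 0.18 and 0.33 (39349 to 48672 in mutants and 30554 to 34692 in controls). The 4 cholangiocyte genes were all positive, with 0.11, 0.56 and 0.98 (39.2 to 62.6 in mutants and 33.9 to 36.7 in controls), but lay near background. Sox9 exceeded it on 1 mutant and 0 control arrays, Krt7 on 2 and 1, Epcam on 2 and 2, and Krt19 on 3 and 3.

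Other blood cells were represented by few bright genes. Of 6 antigen presentation genes kept, 5 had a negative difference (median -1.38). H2-Ab1, Cd74 and H2-Aa, parts of the MHC class II machinery, had -1.56, -1.20 and -1.59. Other kept probe sets gave -1.83 and -3.22 for H2-Ab1, and -0.74 and -4.15 for H2-Aa, the last with every mutant below every control. On the probe sets at -3.22 and -4.15, mutants 1 and 3 were under background. The median deviation of the 6 genes was -1.76 and -2.23 in mutants 1 and 3 and 0.52 in mutant 2 (summed signal 100.2 to 716 in mutants and 394 to 570 in controls). Among 4 monocyte genes kept, 2 were negative and 2 positive (median -0.43), with list deviations of 0.62, -0.49 and -1.25 in mutants 1 to 3. Plac8 was lower in every mutant (log2 difference -1.13, SE 0.28, adjusted p = 0.249, limma). The summed signal was 63.6 to 132 in mutants and 154 to 177 in controls. This sum mostly follows Plac8, whose mean log2 signal in controls was 7.12, against 2.61 to 3.55 for the others. Of 10 neutrophil genes kept, 6 were negative and 4 positive (median -0.50). The summed signal was 207 to 1612 in mutants, mutant 1 being the highest, and 276 to 461 in controls. In mutant 1 this sum mostly follows Lcn2, at a log2 signal of 10.06, against 8.08 for the next gene, S100a8. The list deviations were -0.17, 0.09 and -0.81 in mutants 1 to 3, and -0.54 to 0.57 in controls. Csf3r, the receptor for the neutrophil growth factor, had 1.70 and the granule peptide Camp -2.27 (adjusted p = 0.366 and 0.373, limma). Of 6 B cell genes kept, 4 were negative and 2 positive (median -1.03, summed signal 57.8 to 64.6 in mutants and 67.1 to 75.3 in controls). Cd79b, a chain of the B cell receptor complex, had -1.09 with every mutant below every control, and the transcription factor Pax5 had 0.67 with every mutant above every control. Of 6 T and NK cell genes kept, 4 were negative and 2 positive (median -0.36, summed signal 45.3 to 101.5 in mutants and 47.7 to 77.7 in controls). The interleukin receptor chain Il2rb had 0.81, higher in every mutant, the surface protein Thy1 0.91 and Cd3d, a chain of the T cell receptor complex, -1.01. These 3 genes lay near background: Il2rb exceeded it on 2 mutant and 0 control arrays, Thy1 on 1 and 0, and Cd3d on 1 and 2.

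**Figure D5:**
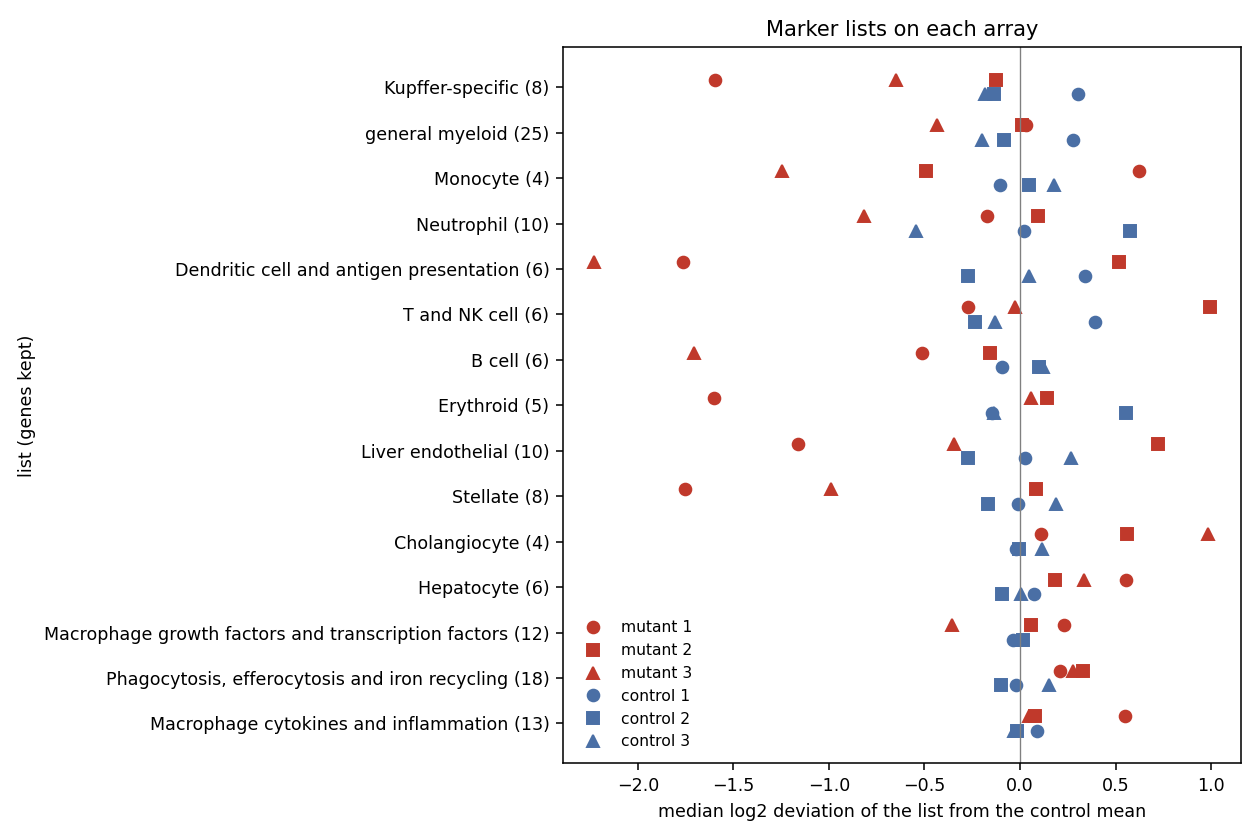
Median log2 deviation of each marker list from the control mean (x axis), by list with the number of genes kept (y axis), 1 point per array, mutants above controls in each row. Mutant 1 is the lowest array for the Kupffer-specific, erythroid, liver endothelial and stellate lists, whereas the general myeloid points of all arrays lie between -0.43 and 0.28.

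The wider macrophage pathway showed no gene past the test. Among growth factors and transcription factors, 8 of 12 kept were negative (median -0.09). Csf1 and Il34, the ligands of the CSF1 receptor, had -1.17 and -0.23, and for Csf1 the shift lay in mutant 3, at 1.0 against 4.45 and 4.36 in the other mutants and 4.26 to 4.65 in controls, while its other 2 kept probe sets gave 0.15 and -0.03. Spi1, which encodes PU.1, the factor that sets up the macrophage lineage, had -0.14, and Irf8, which acts with it, 0.01. Nr1h3 and Maf, both known to support Kupffer cell identity, had -0.72 and -0.93, with mutant 1 the lowest array for each (adjusted p = 0.487 and 0.494, limma). The other 4 kept probe sets of Maf gave -2.03, -0.27, 0.31 and 0.92, so that gene has no settled sign. Cebpb had 0.57.

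Among 18 phagocytosis and iron genes kept, 6 were negative and 12 positive (median 0.20), where 45.9% of all genes were negative. For 3 of the 18 every mutant was above every control, near the 14.1% of all genes. Hmox1, the haem oxygenase that releases iron from haem, had 1.08 (SE 0.41, adjusted p = 0.339, limma), the lysosomal protease Ctsl 0.88, and Pros1, a bridging ligand between dying cells and the AXL and MERTK receptors, 0.74. Hepatocytes express these 3 genes as well. Slc40a1, the iron exporter ferroportin, had -0.27 on its brightest probe set and -0.91 on its other, with mutant 1 the lowest array on both. Of 13 cytokine and inflammation genes kept, 5 were negative and 8 positive (median 0.20). The inflammasome sensor Nlrp3 had 1.91, Il1b 1.55 and Il18 -0.76 (adjusted p = 0.376, 0.376 and 0.379, limma). Nlrp3 exceeded background on 1 mutant array, that of mutant 1, and on 0 control arrays, so the size of its difference is not exact. Mutant 1 was the highest array for Nlrp3 and Il1b, as it was for Cd14, and Tnf, Il6, Ccl2, Ccl3 and Nos2 were too dim to be kept.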

How the data were processed

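Liver RNA of 3 mutant and 3 control mice was labelled with biotin and hybridised to 1 array per mouse; the series' design text lists separate mice. The deposited values are linear intensity per probe set, made with GCOS per the submitters' processing notes; those notes name neither the algorithm nor the scaling. Gene symbols came from the platform annotation, updated through Entrez identifiers for 34741 of 34945 probe sets with 1 symbol; Emr1 counts as Adgre1. Another 932 with several symbols and 9160 unlisted were left unnamed.

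Because trimmed means (2% off each end) differed by over 5%, arrays were rescaled to their common mean. Signals under 1 were set to 1 and log2 was taken, so a log2 signal of 0 is the floor. The lower 40% of probe sets by mean over all 6 arrays were left out, keeping 27022 probe sets, 49 of the 57 member probe sets and 33 of 34 members. A gene stands by its brightest kept probe set. Groups were compared with limma 3.58.1 in R 4.3.3 (lmFit, eBayes with trend, two-sided, Benjamini-Hochberg over all kept probe sets, threshold 0.05); the step was tested on simulated data. Folds are differences of log2 signals, and for dim genes their size depends on the floor. Only 3 arrays per group limit the precision.

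Members, lists and tests were chosen with earlier results of these data known. Arrays are given one by one for Kupffer-specific members and for those with separate groups or an unadjusted p under 0.05; from other lists up to 3 genes with the smallest adjusted p are named. Csf1, Il34, Spi1, Irf8, Slc40a1 and the other members given in full fall outside this rule and were chosen after their values were seen.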

Additional observations from a re-analysis of the deposited data

How the results depend on the processing

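Over 17 alternatives no member passed the threshold except Aif1 without mutant 2 (limma, 1 gene and 1 probe set; 0 in the others), with 4 members at an unadjusted p under 0.05 in the reported fit and 0 to 13 in the alternatives. Of 33 members, 9 kept 1 sign throughout, namely Timd4, Folr2, Csf1r, Adgre1, C1qa, Fcgr1, Tyrobp, Aif1 and Cd52. The number of probe sets called in the whole table, 20, was 35 on the deposited scaling, 107 after log2(signal + 32), 9 with a floor of 16, 0 without the filter (limma; before adjustment, p was under 0.05 for 1250 genes higher in mutants and 920 lower), 11 with the lower 60% left out, 9 without the variance trend and 5 with the 3′ over 5′ covariate, and 2 to 579 with 1 array left out. With the replicate number as a block (replicate block) it was 22, and no member's call changed. The deviations of mice with equal numbers correlated at -0.037, 0.018 and 0.041. These values cannot decide whether equal numbers pair the mice, since mice with unequal numbers were not correlated for comparison.

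The Kupffer-specific median, -0.93, was -1.38 on the deposited scaling, -0.48 after log2(signal + 32), -0.61 with a floor of 16 and -0.051 with the covariate; with 1 array left out it was -1.28 (without mutant 2) to -0.39 (without mutant 1). The general myeloid median was -0.57 on the deposited scaling and -0.22 to -0.00078 with 1 array left out. The deposited scaling moved the median of all genes to -0.39, against 0.06, and centring arrays on their median moved it to -0.17. Relative to all genes the Kupffer-specific median was -0.994 on the deposited scaling and -0.995 after rescaling. The cause of these shifts was not tested.

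These differences changed sign. With the covariate they were 0.63 for Axl, -0.10 for Mpeg1, -0.13 for Marco, 0.41 for Ly86, -0.59 for Itgax, -0.71 for Fcgr3, -0.30 for Fcer1g, -0.20 for Cybb, -0.73 for Spic, -0.028 for Ctss, -0.017 for Coro1a, 0.030 for Vsig4, 0.25 for Cd5l, 0.36 for Clec4f and -0.84 for Cd14. With median centring they were -0.19 for Ctss, -0.074 for Mpeg1, -0.16 for Cybb, -0.12 for Cd68, -0.067 for Fcer1g, -0.21 for Laptm5 and -0.067 for Coro1a. On the deposited scaling they were -0.029 for Msr1, -0.29 for Mpeg1, -0.43 for Laptm5, -0.41 for Ctss, -0.34 for Cd68, -0.29 for Fcer1g, -0.38 for Cybb, -0.29 for Coro1a and -0.14 for Fcgr3. Ccr2 had 0.17 with a floor of 16 and 0.087 after log2(signal + 32), and the mean over probe sets gave -0.054 for Laptm5, 0.0058 for C1qb and -0.17 for Cybb. With 1 array left out the ranges were -0.19 to 0.025 for C1qc, -0.0068 to 0.95 for Cd163, -0.19 to 0.33 for Cd68, -0.0059 to 0.41 for Coro1a, -0.060 to 0.16 for Ctss, -0.26 to 0.39 for Cybb, -0.18 to 0.43 for Fcer1g, -0.30 to 0.68 for Fcgr3, -0.30 to 1.05 for Itgax, -0.17 to 0.21 for Laptm5, -0.29 to 0.14 for Lyz2, -0.072 to 0.42 for Mpeg1 and -0.66 to 0.023 for Ptprc. Where a group lay at or below background, as for Timd4, Aif1 and Fcgr1 in mutants 1 and 3, the size of a difference is not exact.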
